A study of Mus musculus with 2 samples.

Results

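The genes described here encode the MHC class II presentation machinery. *H2-Aa* and *H2-Ab1* encode the α and β chain of I-A, the classical class II molecule, and *H2-Eb1* encodes the β chain of I-E. *Cd74* encodes the invariant chain, which blocks the peptide groove and guides class II to endosomes. *H2-DMa*, *H2-DMb1* and *H2-DMb2* encode the chains of H2-DM, which exchanges the invariant chain remnant for peptide, *H2-Oa* encodes the α chain of H2-O, an inhibitor of H2-DM, and *Ciita* encodes the class II transactivator, the master regulator of transcription of this gene family. The genes were chosen by their symbols, and all 9 were found among the 17232 genes measured.

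The measurements are scRNAseq profiles of tumor-infiltrating immune cells from tumors of B16-OVA, a melanoma line of the mouse engineered to make ovalbumin as antigen, which were grown in mice of genotype *Maoa* WT or *Maoa* KO. *Maoa* encodes monoamine oxidase A, a mitochondrial enzyme that degrades monoamines such as serotonin. The *Maoa* KO mice carried a hypomorphic mutant (129S-Maoa tm1Shih/J) backcrossed to C57BL/6J, and adult female mice were the default of the study. For each genotype 10 tumors were combined, DAPI-CD45.2+ cells were sorted, 10000 of them were loaded, and 1 Chromium 3′ V2 library was made. There was therefore no replicate check on any difference between the libraries and no test was made. All intervals are 95% intervals that cover counting error only, and they describe libraries, not genotypes.

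The library labelled WT held 2392 cells with a median of 9887.5 UMIs (unique molecular identifiers, each counting an RNA molecule once whatever its length), and the library labelled KO held 2630 cells with a median of 6945.5. *Maoa* itself gave 7 UMIs (6 cells) under the label WT and 15 UMIs (14 cells) under the label KO. The targeted gene thus did not follow the labels, so the libraries are called by their labels throughout, and where values are paired, the first is from the library labelled WT. In both libraries 13 barcode sequences occurred. Levels are UMIs per 1000000 UMIs of the same cells (CPM), so each is a share of the RNA captured in a cell class.

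Dendritic cells (DCs), macrophages and B cells carry class II constitutively or after activation, and show peptides on it to CD4 T cells. *Ciita* binds no DNA by itself. It is recruited by a complex of RFX, CREB and NF-Y assembled on the W, X and Y boxes, which lie shortly upstream of class II, *Cd74* and *H2-DM* genes. C57BL/6 mice make no I-E α chain, so that *H2-Eb1* RNA is made in them without I-E on the surface.

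In the mouse genome (GRCm38, GENCODE annotation), 7 of the genes lie together on chromosome 17, from *H2-Oa* (chr17:34092340-34095234) through *H2-DMa* (chr17:34119541-34139101), *H2-DMb2* (chr17:34143307-34151555), *H2-DMb1* (chr17:34153072-34160230), *H2-Ab1* (chr17:34257689-34269419) and *H2-Aa* (chr17:34282744-34287823, reverse strand) to *H2-Eb1* (chr17:34305867-34316674). *Ciita* lies on chromosome 16 (chr16:10480059-10528418). RefSeq promoters (GRCm38.p6) were at hand for 6 genes: *H2-Aa*, *H2-Eb1*, *H2-DMa*, *H2-DMb1*, *H2-DMb2* and *H2-Oa*. The stretches below run from 150 to 39 bases before the RefSeq start, 5′ to 3′ on the strand of the gene. They are shown because these genes, which differ in level and in pattern, share the box that NF-Y binds. Capitals mark the Y box (TGATTGG) and the core of the X box (AACNGATG). They cover chr17:34287862-34287973 for *H2-Aa* (reverse strand), chr17:34305717-34305828 for *H2-Eb1*, chr17:34145099-34145210 for *H2-DMb2* and chr17:34092229-34092340 for *H2-Oa*.
H2-Aa: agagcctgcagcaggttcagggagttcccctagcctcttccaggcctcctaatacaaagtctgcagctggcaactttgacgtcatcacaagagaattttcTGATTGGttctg
H2-Eb1: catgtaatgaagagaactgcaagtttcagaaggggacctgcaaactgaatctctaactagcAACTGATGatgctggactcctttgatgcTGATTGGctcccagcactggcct
H2-DMb2: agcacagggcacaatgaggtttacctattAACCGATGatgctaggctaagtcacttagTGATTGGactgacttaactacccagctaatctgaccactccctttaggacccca
H2-Oa: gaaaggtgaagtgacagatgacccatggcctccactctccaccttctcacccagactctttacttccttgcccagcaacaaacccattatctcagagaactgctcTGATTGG
Over the 250 bases upstream of the start and on both strands, the Y box letters occurred in 5 of the 6 promoters (not in that of *H2-DMa*), against 8.38% of 27025 genes. The X box core letters occurred in *H2-Eb1*, *H2-DMb1* and *H2-DMb2*, against 2.27% of genes, and both motifs occurred in 0.167% of genes. The starts of the X and Y box lay 28 bases apart in *H2-Eb1* and 29 bases apart in *H2-DMb1* and *H2-DMb2*. These are matches of letters within these windows, and binding was not measured.

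Cells were clustered without the class II genes, so that no class rests on the levels described here, and clusters were named from marker genes. Each of the cDC1-like (cross-presenting DCs marked by *Xcr1* and *Clec9a*), Cd209a DC-like, mature DC-like (*Ccr7*, *Fscn1*), pDC-like (*Siglech*, *Ccr9*) and nonclassical monocyte-like (*Ace*, *Treml4*) clusters had at least 11 of its 11 or 12 markers detected and 4 to 6 of them among its 10 leading genes. The classical monocyte-like cluster was led by *Hp*, *Cd177* and *Chil3*, and the C1q macrophage-like cluster by *Gas6*, *Vcam1* and *Fcrls*. A monocyte-like cluster led by interferon-stimulated genes (*Cxcl10*, *Ifit3b*, *Gbp2*) is called interferon-gene monocyte-like, and a cycling cluster (*Mxd3*, *Top2a*) had 10 of 12 cDC1 markers. Cluster 1, led by *Qpct*, *Lpl*, *Dok2* and *Clec5a*, met no naming rule and stays unnamed. Of all 5022 cells, 366 were candidate doublets (3 or more UMIs from the *Cd3* chain genes *Cd3d*, *Cd3e*, *Cd3g* together with 5 or more from 8 myeloid genes), 8.82% of cells in the library labelled WT and 5.89% in the library labelled KO.

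Summed over the 9 genes, class II transcripts made up more of the RNA of Cd209a DC-like cells than of any other class reported here in both libraries. Their level was 73627 CPM (73012 to 74246) in 58 cells of the library labelled WT and 72910 CPM (72476 to 73345) in 130 cells of the library labelled KO. The cDC1-like cells followed with 61632 CPM in 16 cells and 68056 CPM in 52 cells, the cycling cDC1-like cells with 55547 CPM in 9 cells and 53838 CPM in 33 cells, and the mature DC-like cells with 44545 CPM in 28 cells and 44891 CPM in 45 cells. In both libraries each of these DC classes stood apart from its neighbours in the order beyond the counting interval. The pDC-like cells, which specialise in type I interferon, were far below the other DCs, at 16219 CPM in 46 cells and 17075 CPM in 68 cells.

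The nonclassical monocyte-like cells had 39335 CPM in 86 cells of the library labelled WT and 27016 CPM in 91 cells of the library labelled KO. Cells of this cluster were not uniform in monocyte markers, as given under other observations. Unnamed cluster 1 had 36960 CPM (140 cells) and 39069 CPM (200 cells), and the interferon-gene monocyte-like cells had 34679 CPM (88 cells) and 28919 CPM (48 cells). The C1q macrophage-like cells had 11413 CPM (80 cells) and 6567 CPM (102 cells). The classical monocyte-like cells, recent arrivals from the blood, were lowest of the myeloid classes reported here at 5242 CPM (106 cells) and 6051 CPM (195 cells). On the log2 scale the Cd209a DC-like cells stood 3.81 and 3.59 above them, a distance that shrank to 1.38 and 1.63 when cells were gated by marker UMIs rather than clustered.

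The B cell-like cluster was small, with 16300 CPM in 6 cells and 25199 CPM in 23 cells. These are pooled levels: the median cell had 15427 and 41325 CPM. In the library labelled KO the quartiles were 30128 and 50012 CPM, so the pooled level lay below the lower quartile of its cells. In the 23 cells of the library labelled KO the macrophage marker list summed to 4441 CPM, with 14 of its 16 genes seen, against 847 CPM and 6 genes in the library labelled WT; the part of these transcripts in the B cell values was not tested. T cell, NK cell and unnamed lymphoid clusters were lowest at 833 CPM (Lef1 Tcf7 T cells, label WT) and 882 CPM (the unnamed Prf1 Cxcr6 cluster, label KO) and highest at 3174 and 3021 CPM in Foxp3 T cells. Neighbours in the order whose intervals overlapped were the B cell-like and pDC-like cells and the NK cell-like and Klra7 Ccl5 cells in the library labelled WT. In the library labelled KO these were the cycling T and NK cells, the Klra7 Ccl5 and Prf1 Cxcr6 cells, and unnamed cluster 1 with a cluster of mixed T cell and myeloid transcripts in which 82 of 88 and 73 of 77 cells were candidate doublets.

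**Figure D1:**
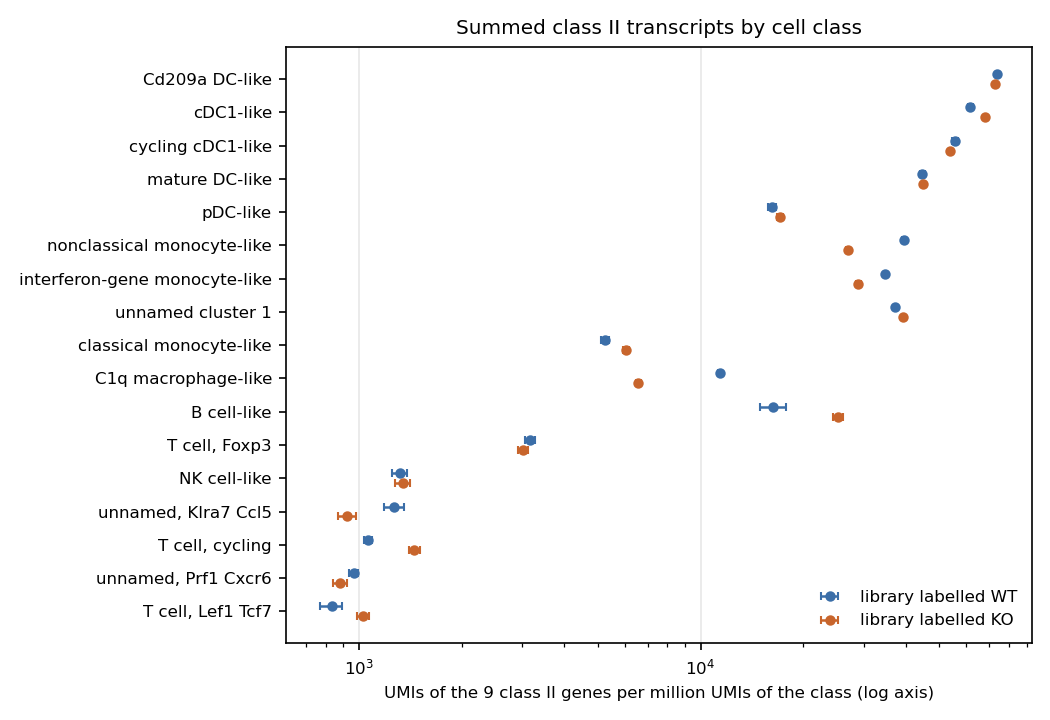
Summed level of the 9 class II genes (x axis, UMIs per 1000000 UMIs of the class, log axis) in each cell class (y axis) for the library labelled WT (blue) and the library labelled KO (orange), with exact 95% Poisson intervals that are often narrower than the symbol. The Cd209a DC-like cells sit at 73627 and 72910 CPM on the right. On the left, Foxp3 T cells sit at 3174 and 3021 CPM and the other T, NK and unnamed lymphoid classes near 1000 CPM. The mixed T cell and myeloid cluster is not drawn.

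A class average can hide how its cells divide. Per cell, all 25 and 85 cells of both cDC1-like clusters held at least 1% of their UMIs in class II genes (10000 CPM, called class II-high here), and so did 93.1% and 96.9% of Cd209a DC-like cells. The middle Cd209a DC-like cell had 78880 CPM in the library labelled WT and 77129 CPM in the library labelled KO. Mature DC-like cells followed with 96.4% and 86.7% class II-high, and pDC-like cells with 73.9% and 69.1%, of which class 23 and 43 cells lay within 2-fold of this bound. There was 1 mature DC-like cell of the library labelled KO, 2 and 1 pDC-like cells and no cDC1-like or Cd209a DC-like cell within the range of lymphoid cells (at or below their 95th percentile without candidate doublets, 2028 and 2091 CPM).

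In the monocyte and macrophage classes the same RNA was shared out unevenly. Only 14.2% and 13.8% of classical monocyte-like cells were class II-high, while 60.4% and 64.6% lay within the lymphoid range. The median nonclassical monocyte-like cell had 31136 CPM in the library labelled WT and 11375 CPM in the library labelled KO, with 65.1% and 53.8% of cells class II-high and 12.8% and 24.2% in the lymphoid range. The median C1q macrophage-like cell had 9496 and 3113 CPM, with 47.5% (36.2 to 59.0) and 25.5% (17.4 to 35.1) of cells class II-high and 18.8% and 42.2% in the lymphoid range. The bound of 10000 CPM cuts a continuous range: 36 and 29 C1q macrophage-like cells lay within 2-fold of it.

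**Figure D2:**
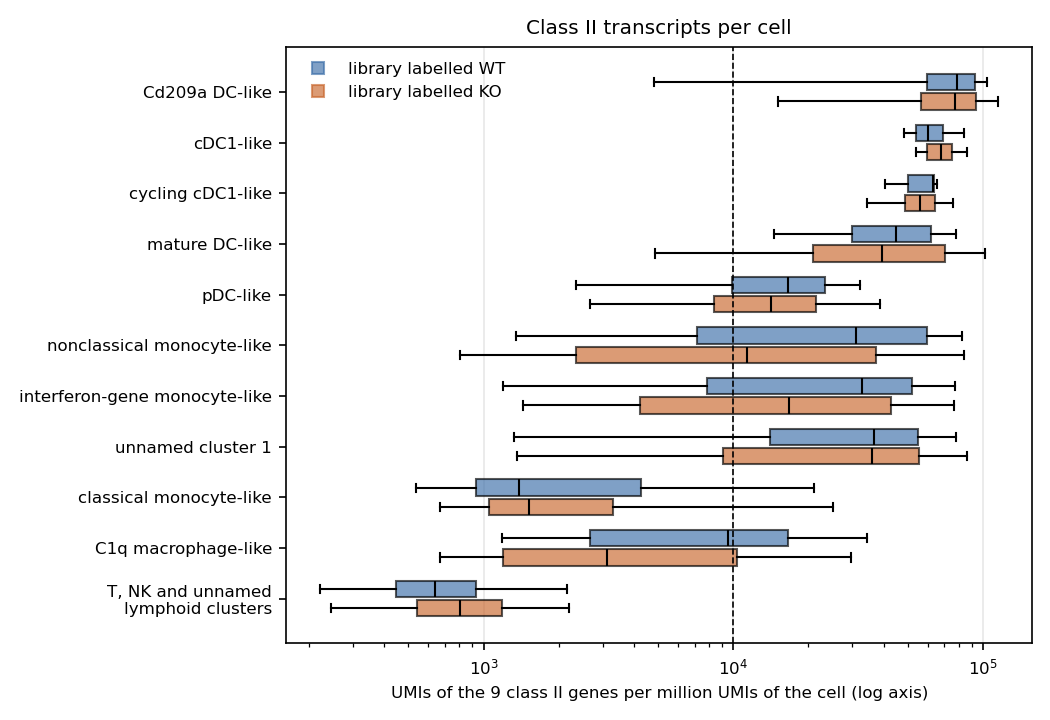
Class II transcripts per cell (x axis, UMIs of the 9 genes per 1000000 UMIs of the cell, log axis) by cell class (y axis) for the library labelled WT (blue) and labelled KO (orange). Boxes span the quartiles with the median as a line, whiskers run from the 5th to the 95th percentile, and the dashed line marks 10000 CPM; cDC1-like boxes lie wholly to its right, and the C1q macrophage-like median is 9496 CPM in the library labelled WT and 3113 CPM in the library labelled KO.

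*Cd74* was the largest part of the class II UMIs in every antigen-presenting class named here. It gave 45.5% and 46.4% of class II UMIs in Cd209a DC-like cells, 48.4% and 48.4% in C1q macrophage-like cells and 53.3% and 52.6% in classical monocyte-like cells. Its share was highest among these classes in pDC-like cells, at 57.9% (56.6 to 59.2) and 58.9% (57.8 to 60.0). Across cells of the same class, *H2-Ab1* and *Cd74* levels rose together, with a Spearman correlation of 0.95 and 0.95 in unnamed cluster 1, 0.84 and 0.85 in Cd209a DC-like cells and 0.59 and 0.49 in classical monocyte-like cells. Points here are cells of 1 library, which share its depth and free RNA.

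Mature DC-like cells, which have stopped taking up antigen and migrate, held the 2 I-A chains in another proportion. Per 100 *H2-Aa* UMIs the library labelled WT gave 65.7 (62.4 to 69.2) *H2-Ab1* UMIs, and the library labelled KO gave 65.3 (62.5 to 68.2). Cd209a DC-like cells had 121 (118 to 125) and 118 (116 to 120). *H2-Aa* stood at 9766 and 9820 CPM in mature DC-like cells against 12309 and 12212 CPM in Cd209a DC-like cells, and *H2-Ab1* at 6417 and 6413 CPM against 14923 and 14424 CPM. The lower ratio thus came with a larger distance between the classes for *H2-Ab1* than for *H2-Aa*. *H2-Eb1* per 100 *H2-Ab1* UMIs was 110 and 105 in mature DC-like cells and 61.8 and 60.3 in Cd209a DC-like cells. *H2-Eb2*, a further class II β chain gene, reached 116 and 76.1 CPM in mature DC-like cells and at most 8.06 CPM in the other DC classes.

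The H2-DM genes also had their own pattern. *H2-DMa* stood at 1421 and 1590 CPM in Cd209a DC-like cells, at 1148 and 1255 CPM in the cDC1-like clusters together and at 352 and 477 CPM in mature DC-like cells. *H2-DMb1* stood at 1337 and 1449 CPM in Cd209a DC-like cells and at 134 and 158 CPM in mature DC-like cells. *H2-DMb2*, the neighbouring β chain gene, stood at 587 and 369 CPM in Cd209a DC-like cells and at 323 and 349 CPM in mature DC-like cells, so that the mature cells were far lower in *H2-DMb1* and less so in *H2-DMb2*. Mature DC-like cells accordingly had 240 (171 to 341) and 221 (170 to 289) *H2-DMb2* UMIs per 100 *H2-DMb1* UMIs. Cd209a DC-like cells had 43.9 (39.1 to 49.1) and 25.4 (23.1 to 28.0), and the cDC1-like clusters 29.4 and 20.9. In monocyte and macrophage classes the ratio was 1.87 to 7.33, and in pDC-like cells it was 5.77 and 19, from 6 and 30 *H2-DMb2* UMIs. In the B cell-like cells it was 400 (12 against 3 UMIs) and 322 (74 against 23 UMIs).

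*H2-DMb1* and *H2-DMb2* are close copies. In GENCODE transcripts 25.2% to 27.2% of 50-base stretches of either occur in the other, and in the last 500 bases, where 3′ reads fall, 20.4% of those of *H2-DMb1* occur in *H2-DMb2* and 0% of those of *H2-DMb2* transcripts occur in *H2-DMb1*. Reads from shared stretches cannot be assigned, which makes the ratio between these genes less certain than the others.

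*H2-DMa* and the classical chains parted in classical monocyte-like cells. These cells had 422 and 472 CPM of *H2-DMa* against 717 and 924 CPM of *H2-Ab1*, that is 58.9 (52.2 to 66.5) and 51.1 (46.7 to 55.8) *H2-DMa* UMIs per 100 *H2-Ab1* UMIs. Cd209a DC-like cells had 9.52 and 11. After thinning every cell to 3700 UMIs, 72.6% and 72.2% of classical monocyte-like cells still had a *H2-DMa* UMI, while 40.6% and 46.4% had a *H2-Aa* UMI. In lymphoid cells these shares were 16.2% and 18.5% for *H2-DMa* and 32.9% and 36.7% for *H2-Aa*, so the order of the genes was the opposite there. Their unthinned shares were 88.7% and 87.2% (*H2-DMa*) and 69.8% and 65.6% (*H2-Aa*) at medians of 8614 and 7698 UMIs in classical monocyte-like cells, and 33.6% and 27.8% (*H2-DMa*) and 60.0% and 52.0% (*H2-Aa*) at medians of 8111 and 4632 UMIs in lymphoid cells.

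*H2-Oa* was found in DCs, pDCs, B cells and lymphoid cells, and was scarce in monocytes and macrophages. Its level was 201 and 209 CPM in Cd209a DC-like cells, 146 and 148 CPM in the cDC1-like clusters, 140 and 162 CPM in mature DC-like cells and 130 and 117 CPM in pDC-like cells. In the monocyte and macrophage classes it was 1.64 to 14.3 CPM, although their *Cd74* level was 2793 to 19833 CPM. Unnamed cluster 1 had 7.07 and 14.3 CPM of *H2-Oa* in 140 and 200 cells, from 15 and 33 UMIs. After thinning, 41.4% and 38.8% of Cd209a DC-like cells had a *H2-Oa* UMI, against 0.943% to 5.88% of the cells of monocyte and macrophage classes and 4.90% and 9.06% of lymphoid cells. Unthinned, the share was 58.6% and 64.6% of Cd209a DC-like cells (median 11627 and 11069.5 UMIs) and 12.0% and 13.5% of lymphoid cells. The monocyte and macrophage shares were thus under the share of the lymphoid cells of the same library.

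In lymphoid cells *H2-Oa* was out of proportion to the other members. Per 100 *Cd74* UMIs they had 2.30 (1.97 to 2.66) and 3.90 (3.39 to 4.46) *H2-Oa* UMIs, against 0.601 and 0.618 in Cd209a DC-like cells and 0.0394 and 0.0734 in unnamed cluster 1. The Lef1 Tcf7 T cells, which carry genes of naive T cells, had 20.1 and 35.0 CPM of *H2-Oa* with 6.14 and 8.93 UMIs per 100 *Cd74* UMIs. The part of free RNA in these values was not tested. *H2-Ob*, which encodes the β chain of H2-O, was at 85.9 and 62.6 CPM in Cd209a DC-like cells, 2.83 and 10.4 CPM in pDC-like cells, 90.7 and 305 CPM in the B cell-like cells and 2.66 and 5.51 CPM in lymphoid cells.

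*Ciita* was detected at low counts, with its highest levels in the DCs other than pDCs. It stood at 141 CPM (105 UMIs) and 117 CPM (174 UMIs) in Cd209a DC-like cells, at 98.7 and 85.6 CPM in the cDC1-like clusters and at 48.4 and 48.3 CPM in mature DC-like cells. Nonclassical monocyte-like cells had 46.4 CPM (31 UMIs) and 27.5 CPM (17 UMIs), unnamed cluster 1 25.4 and 36.7 CPM, C1q macrophage-like cells 10.9 and 5.46 CPM and classical monocyte-like cells 8.92 and 13.9 CPM. In lymphoid cells it was at 1.68 and 2.70 CPM. The Klra7 Ccl5 cluster had 0 UMIs in both libraries, which allows up to 4.07 and 2.58 CPM. After thinning, 43.1% and 31.0% of Cd209a DC-like cells had a *Ciita* UMI, against 0.676% and 0.779% of lymphoid cells; unthinned, these shares were 77.6% and 70.0% against 1.96% and 1.52%. Against its targets *Ciita* stood at 0.945 and 0.812 UMIs per 100 *H2-Ab1* UMIs in Cd209a DC-like cells, 0.621 and 0.590 in nonclassical monocyte-like cells and 0.364 and 0.512 in unnamed cluster 1.

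**Figure D3:**
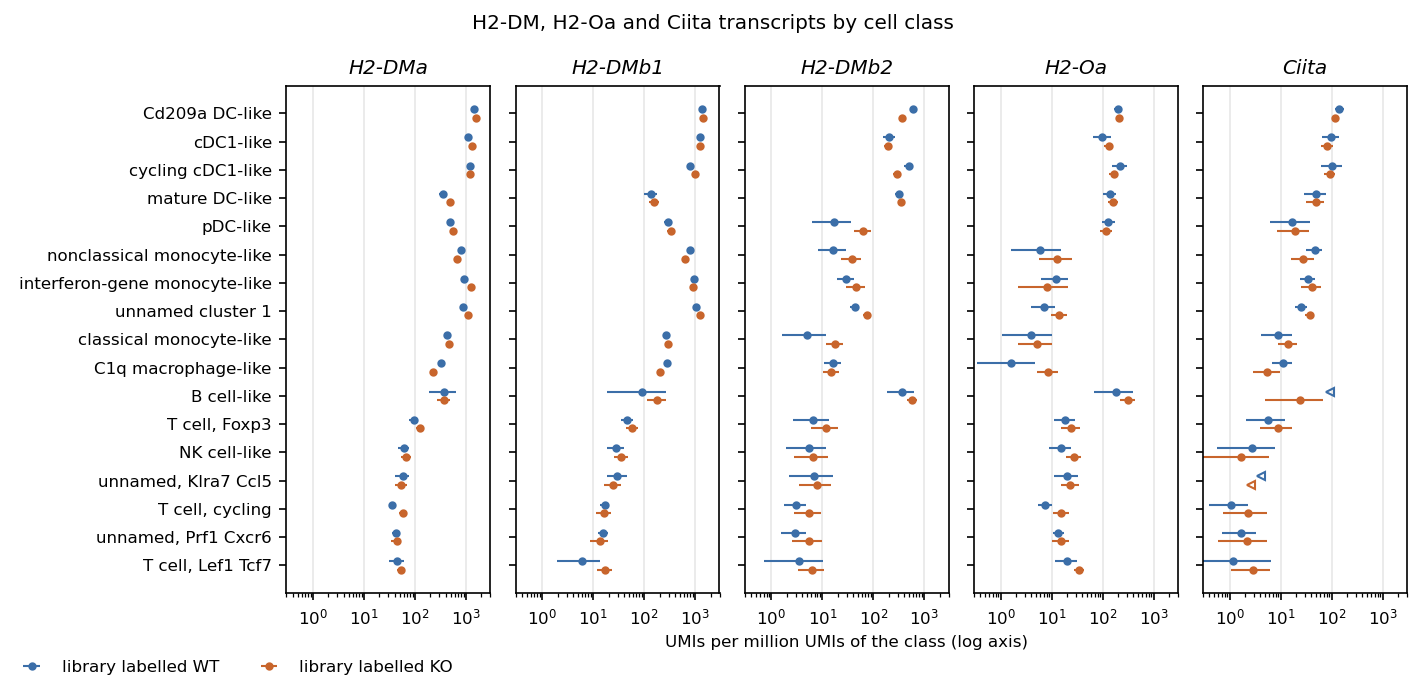
Levels of *H2-DMa*, *H2-DMb1*, *H2-DMb2*, *H2-Oa* and *Ciita* (x axes, UMIs per 1000000 UMIs of the class, log axes) by cell class (y axis) in the library labelled WT (blue) and labelled KO (orange), with exact 95% Poisson intervals; open triangles mark the limit allowed by 0 UMIs. *H2-Oa* stays at or under 14.3 CPM in monocyte and macrophage classes, and *H2-DMb2* in mature DC-like cells is at 323 and 349 CPM while *H2-DMb1* is at 134 and 158 CPM.

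Class II transcripts were also seen in T and NK cells. After thinning, a *Cd74* UMI was found in 64.2% (61.4 to 67.0) and 67.3% (64.3 to 70.1) of lymphoid cells, with 43 and 356 shallower cells left out. Without thinning the shares were 84.4% and 77.7%. *Cd74* gave 44.8% and 44.3% of class II UMIs in lymphoid cells. This was near its share in Cd209a DC-like cells (45.5% and 46.4%) and below that in pDC-like cells (57.9% and 58.9%). Of the lymphoid cells, 18 and 14 were class II-high, and candidate doublets numbered 24 and 14.

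Foxp3 T cells (regulatory T cells) stood above the other lymphoid clusters. Their *Cd74* level was 1702 and 1531 CPM, against 327 to 664 CPM in the others. Without candidate doublets and without cells above the lymphoid range it was 506 (458 to 557) and 473 (427 to 522) CPM, against 225 to 339 CPM in the other lymphoid clusters under the same limit. In these cells *Cd74* gave 54.3% (50.6 to 57.9) and 49.2% (45.6 to 52.7) of class II UMIs, against 41.3% and 39.5% in all such lymphoid cells, while *H2-Ab1* was at 187 and 191 CPM against 155 and 187 CPM. The excess was thus in *Cd74* and less in *H2-Ab1*. The part of free RNA and of undetected doublets in it was not tested.

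Between the libraries, DCs differed little in class II. A gene is called higher or lower here when it differed at least 1.5-fold with separate 95% intervals, among genes with at least 100 UMIs in the class. In Cd209a DC-like cells the log2 ratio (label KO over label WT) was -0.01 (-0.03 to 0.00) for the sum of all 9 genes. *H2-DMb2* was lower, with 437 UMIs (587 CPM) against 548 UMIs (369 CPM) and a log2 ratio of -0.67 (-0.85 to -0.49), so that 1 of 9 members was lower and 0 were higher, where 5.83% of all genes tested were lower and 2.52% higher. Without candidate doublets it was at 581 and 375 CPM (-0.63). In the same cells the marker list of Cd209a DCs was at 2433 and 4048 CPM with all 11 genes seen in both libraries, and that of cDC1 cells at 1531 and 1004 CPM with all 12 genes seen; their part in the difference of *H2-DMb2* was not tested.

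In the cDC1-like clusters together (25 and 85 cells) the log2 ratio of the sum was 0.05 (0.03 to 0.07), with 0 of 9 members called, against 4.4% of genes lower and 2.49% higher. *H2-DMb2* had a log2 ratio of -0.43 (-0.71 to -0.14), short of 1.5-fold. In mature DC-like cells the log2 ratio was 0.01 (-0.02 to 0.04) with 0 of 8 members called, against 5.30% of genes lower and 2.37% higher. In pDC-like cells it was 0.07 (0.03 to 0.12) with 0 of 7 members called, against 2.41% lower and 1.70% higher.

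Class II members were called lower in C1q macrophage-like and nonclassical monocyte-like cells. In C1q macrophage-like cells the summed log2 ratio was -0.80 (-0.83 to -0.77). *H2-Aa* stood at 1911 CPM in the library labelled WT and 985 CPM in the library labelled KO (log2 ratio -0.96), *H2-Eb1* at 1359 and 770 CPM (-0.82), *Cd74* at 5525 and 3182 CPM (-0.80) and *H2-Ab1* at 1984 and 1170 CPM (-0.76). These 4 of the 6 members with at least 100 UMIs were lower and 0 were higher, where 4.01% of all genes in these cells were lower and 2.18% higher. *H2-DMa* and *H2-DMb1* had log2 ratios of -0.53 and -0.44, and *H2-Oa* had 3 and 19 UMIs, a log2 ratio of 2.22 (0.64 to 4.8). Candidate doublets were 21 of 80 and 15 of 102 of these cells. Without them the log2 ratios of these 6 members ran from -1.17 to -0.63, and that of the sum was -0.97. *H2-Oa* then had 1 and 8 UMIs, with a log2 ratio of 1.92 (-0.48 to 7.89). The macrophage marker list summed to 23077 and 24156 CPM with all 16 genes seen in both libraries. The neutrophil list was at 163 and 23.6 CPM with 6 of 8 genes seen and the melanoma list at 423 and 206 CPM with all 8 seen. The part of these transcripts in the difference was not tested. When the clusters were made coarser (resolution 0.5), 9 and 32 cycling cDC1-like cells joined this cluster and its log2 ratio turned to 0.21. The C1q macrophage-like cells within that merged cluster (77 and 101 cells) kept a log2 ratio of -0.80.

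In nonclassical monocyte-like cells the summed log2 ratio was -0.54 (-0.57 to -0.51). *H2-Ab1* stood at 7478 and 4670 CPM (log2 ratio -0.68), *H2-Aa* at 6416 and 4035 CPM (-0.67) and *H2-Eb1* at 3967 and 2556 CPM (-0.63), so that 3 of 6 members were lower, where 4.90% of all genes were lower and 2.11% higher. *Cd74* was at 19833 and 14365 CPM (-0.47), short of 1.5-fold, and *H2-DMa* and *H2-DMb1* had log2 ratios of -0.23 and -0.29. Without candidate doublets (2 and 5 cells) the log2 ratios of *H2-Aa*, *H2-Ab1* and *H2-Eb1* were -0.58, -0.57 and -0.57, each short of 1.5-fold. In these cells the neutrophil list was at 1173 and 530 CPM with 7 of 8 genes seen in each library, and its part in the difference was not tested.

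In interferon-gene monocyte-like cells the summed log2 ratio was -0.26 (-0.29 to -0.23). *H2-Eb1* (-0.52) and *H2-Aa* (-0.50) fell short of 1.5-fold, *H2-DMa* had a log2 ratio of 0.45, and 0 of 6 members were called, against 6.04% of genes lower and 3.94% higher. In unnamed cluster 1 it was 0.08 (0.07 to 0.09). *H2-DMb2* was higher there, at 42.9 CPM (91 UMIs) and 74.4 CPM (172 UMIs) with a log2 ratio of 0.79 (0.42 to 1.18), 1 of 8 members, where 2.50% of all genes were higher and 3.38% lower. In classical monocyte-like cells it was 0.21 (0.16 to 0.26) with 0 of 6 members called, against 4.48% lower and 2.91% higher. The sign changed with the clustering in the last 2 classes, from -0.40 to 0.77 in classical monocyte-like cells and from -0.10 to 0.10 in unnamed cluster 1 over the settings tried. At resolution 0.5, with 20 PCs, without depth regression and with class II genes kept, no separate interferon-gene cluster was found, and the cluster led by *Qpct* and *Gbp2* that stands for unnamed cluster 1 held 239 to 261 and 244 to 265 cells, against 140 and 200. In lymphoid cells *H2-Oa* (12.4 and 23.2 CPM, log2 ratio 0.90) and *H2-DMb2* (3.65 and 6.65 CPM, 0.87) were higher, 2 of 8 members, where 4.45% of all genes were higher and 5.92% lower. Without candidate doublets *H2-Oa* had a log2 ratio of 0.90, and *H2-DMb2* had 44 and 51 UMIs, under the minimum of 100. The libraries held the lymphoid clusters in different numbers, with 154 and 410 Lef1 Tcf7 T cells, 349 and 175 Prf1 Cxcr6 cells and 264 and 110 cycling T cells, and the part of this in the pooled values was not tested. Within single lymphoid clusters the log2 ratio of *H2-Oa* was 0.17 to 1.05, from under 100 UMIs in each. Other members went both ways there. In the Klra7 Ccl5 cluster *Cd74* (590 and 377 CPM, -0.64) and *H2-Eb1* (160 and 78.2 CPM, -1.03) were lower. These were 2 of 5 members, where 3.91% of all genes were lower and 1.60% higher. Without candidate doublets the log2 ratios of *Cd74* and *H2-Eb1* there were -0.003 and -0.10. In cycling T cells *H2-DMa* was higher (35.8 and 58.6 CPM, 0.71), 1 of 6 members, where 1.41% of all genes were higher and 2.75% lower. Without candidate doublets the log2 ratio of *H2-DMa* there was 0.57, short of 1.5-fold. It was 0.77 for *H2-Aa*, 0.70 for *H2-Eb1*, 0.66 for *Cd74* and 0.26 for *H2-Ab1*. Over all genes tested, the median log2 ratio was between -0.08 and 0.10 in every class.

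**Figure D4:**
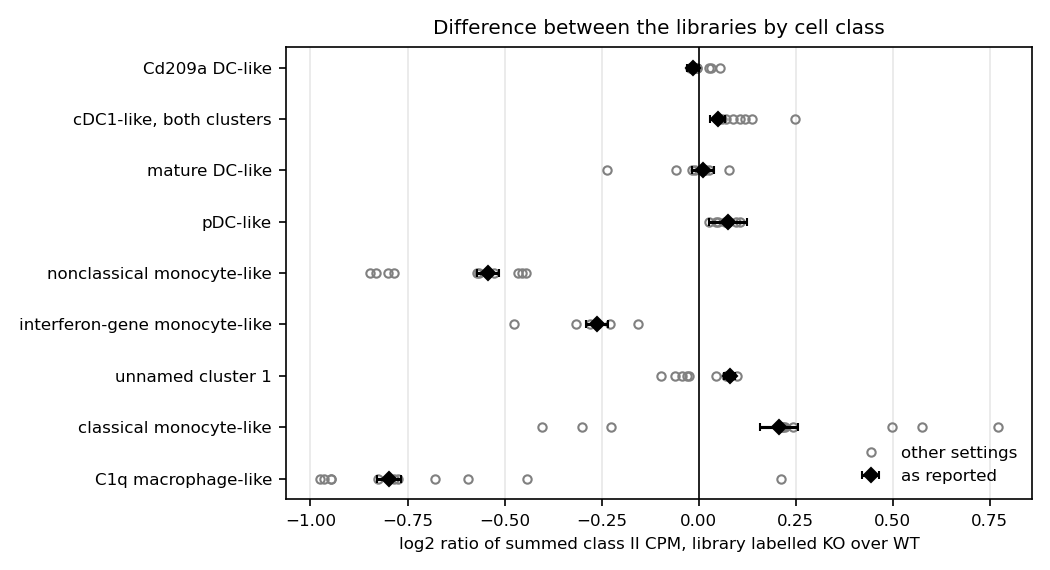
Log2 ratio of the summed class II level, library labelled KO over library labelled WT (x axis), in each DC, monocyte and macrophage class (y axis). Black diamonds are the values reported with 95% counting intervals and grey circles the values under other settings; the nonclassical monocyte-like cells stay left of 0, the C1q macrophage-like cells do so except at resolution 0.5 (0.21), and the classical monocyte-like cells and unnamed cluster 1 fall on both sides of 0.

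Among 15 genes of class II transcription, 6 had at least 100 UMIs in Cd209a DC-like cells, where *Irf8* (a DC transcription factor) was lower and *Ifngr1* (an interferon γ receptor chain) was higher, where 5.83% of all genes were lower and 2.52% higher. *Irf8* stood at 275 and 151 CPM (log2 ratio -0.87), while the class II sum of the same cells was at -0.01. *Ifngr1* was also the gene of this list called higher in the cDC1-like clusters (1 of 6, against 2.49% of all genes), interferon-gene monocyte-like cells (1 of 6, 3.94%), unnamed cluster 1 (1 of 8, 2.50%) and lymphoid cells (1 of 15, 4.45%). In C1q macrophage-like cells 0 of 7 genes were called, against 4.01% lower and 2.18% higher among all genes, and in nonclassical monocyte-like cells 0 of 6, against 4.90% and 2.11%.

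*Lgmn* and *Ctsl*, which encode proteases that trim the invariant chain, were lower in some classes. *Lgmn*, an asparaginyl endopeptidase, stood at 1124 and 348 CPM (log2 ratio -1.69) in interferon-gene monocyte-like cells, and *Ctsl* (cathepsin L) at 788 and 430 CPM (-0.87) in C1q macrophage-like cells and at 225 and 93.8 CPM (-1.26) in classical monocyte-like cells. All 6 genes of invariant chain processing and peptide supply reached 100 UMIs in the next 5 classes. Of them, 3 were lower in interferon-gene monocyte-like cells (6.04% of all genes), 2 in classical monocyte-like cells (4.48%), 2 in lymphoid cells (*Ctsl* and *Lgmn*, 5.92%), and 1 each in unnamed cluster 1 (3.38%) and C1q macrophage-like cells (4.01%). Fewer reached it in nonclassical monocyte-like cells and the DC classes: 1 of 5 was lower in nonclassical monocyte-like cells (4.90% of all genes), 0 of 5 in Cd209a DC-like cells (5.83%), and *Lgmn* as 1 of 4 in both mature DC-like cells (5.30%) and the cDC1-like clusters (4.40%). In pDC-like cells *Ifi30* was higher (167 and 262 CPM), 1 of 5 genes against 1.70% of all genes. *Ctss* (cathepsin S), which makes the last cut in DCs, was at 2117 and 1715 CPM in Cd209a DC-like cells and 2743 and 1936 CPM in C1q macrophage-like cells and was called in none of the classes named here. Of the genes of turnover and trafficking, *Cd83*, which opposes the degradation of class II, was highest in mature DC-like cells at 621 and 839 CPM. *March1*, the ubiquitin ligase that targets class II for degradation, was at 40.3 and 52.5 CPM in Cd209a DC-like cells and had 5.38 CPM in mature DC-like cells of the library labelled WT and 0 UMIs in those of the library labelled KO.

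Over the 35 class-by-library levels from at least 20 cells, the genes outside the class II machinery most like the class II sum in log2(CPM + 1), among 4963 genes with at least 1000 UMIs, were *Fgd2* (Pearson correlation 0.92), *Prcp* (0.91), *Atox1* (0.91), *Rasa4* (0.91) and *Skap2* (0.91). Of the members, *Ciita* was at 0.95, *H2-DMb2* at 0.85 and *H2-Oa* at 0.37. *Ifi30*, a thiol reductase of the endosome, was at 0.91, *Spi1* (PU.1) at 0.88 and *Rfx5*, the DNA-binding RFX subunit, at -0.04. The points share libraries and depth, and the values are descriptions.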

How the data were processed

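The deposited table held natural log values, ln(1 + UMIs scaled to 10000 per cell), which the authors had made from filtered UMI counts. The submitters' processing notes name Cell Ranger (version not given in the sources used here) and mm10. The label calls the values raw counts and the planned design assumed UMIs. Whole UMIs were recovered for 100% of nonzero values (tolerance 0.01), with 17232 genes and 5022 cells, and all 5022 cells passed the filter that the study states. Barcode suffixes gave the library of each cell.

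Cells were clustered in 2 rounds (Seurat 5.3.0, R 4.3.3, 13 PCs, resolution 0.8, depth regressed out) with class II genes left out of the variable genes. Clusters were named from at least 3 detected markers and their 10 leading genes. Levels are UMIs per 1000000 with exact Poisson intervals, shares have Clopper-Pearson intervals, and ratios have exact conditional intervals (Python 3.11.15, scipy 1.17.1), all at 95%. Shares were compared after thinning to 3700 UMIs per cell. Candidate doublets were kept and also left out. Shares over all genes were computed only with candidate doublets kept. The members, lists and comparisons were chosen with earlier results of these data known. The genes named are the 9 members, 5 lists of related genes and the 5 genes most alike in level; genes that lead a cluster or separate class II-high cells were chosen after their values were seen. The ratio formula was run on simulated Poisson counts, with calls made from the interval of the ratio and not from separate intervals. Such counts hold no spread between libraries or animals. Of the clusters and the listed genes, 1 each is not reported here; the cluster remains among the levels over which likeness was computed.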

Additional observations from a re-analysis of the deposited data

How the results depend on the processing

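No paired analysis was possible because each genotype had 1 library. With no replicates, each alternative was set against the counting interval: of 109 alternative values, 53 stayed within it, 55 left it and 1 changed the sign of a called difference. The values below are log2 ratios of the summed class II level, library labelled KO over labelled WT, unless said otherwise.

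At resolution 0.5 the C1q macrophage-like cluster was at 0.21, classical monocyte-like cells at -0.30, nonclassical monocyte-like cells at -0.80 and unnamed cluster 1 at -0.043. At resolution 1.2 the cDC1-like clusters were at 0.11, classical monocyte-like cells at 0.57, nonclassical at -0.46, interferon-gene at -0.48 and C1q macrophage-like cells at -0.95. With 20 PCs the values were 0.25 (cDC1-like), -0.018 (mature DC-like), 0.77 (classical), -0.79 (nonclassical), -0.062 (unnamed cluster 1) and -0.95 (C1q). Without depth regression they were 0.14 (cDC1-like), -0.40 (classical), -0.83 (nonclassical), -0.026 (unnamed cluster 1) and -0.44 (C1q). With class II genes kept for clustering they were 0.071 (cDC1-like), 0.50 (classical), -0.47 (nonclassical) and -0.096 (unnamed cluster 1). The nonclassical monocyte-like cluster held 46 and 43 cells at resolution 0.5 and 44 and 39 cells without depth regression, against 86 and 91 as reported.

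Weighting each cell equally gave 0.087 (cDC1-like), 0.032 (Cd209a DC-like), -0.058 (mature DC-like), -0.32 (interferon-gene), 0.043 (unnamed cluster 1) and -0.68 (C1q), a log2 level of Cd209a DC-like over classical monocyte-like cells of 3.67 in the library labelled KO, and a *Cd74* share of 42% of class II UMIs in lymphoid cells there. Relative to UMIs without ribosomal protein, mitochondrial and class II genes the ratios were 0.12 (cDC1-like), 0.056 (Cd209a DC-like), 0.078 (mature DC-like), -0.23 (interferon-gene) and 0.098 (unnamed cluster 1). Classes from marker UMIs per cell gave 0.026 (Cd209a DC-like), -0.24 (mature DC-like), -0.23 (classical), -0.85 (nonclassical) and -0.59 (C1q), and log2 levels of Cd209a DC-like over classical monocyte-like cells of 1.38 and 1.63. Without candidate doublets the ratios were -0.44 (nonclassical), -0.16 (interferon-gene), -0.029 (unnamed cluster 1) and -0.97 (C1q), the log2 level of Cd209a DC-like over classical monocyte-like cells was 3.55 and the lymphoid *Cd74* share 43.4%, both in the library labelled KO. Subtracting the lymphoid background gave -0.57 (nonclassical) and -0.97 (C1q). A *Cd74* UMI was found in 84.4% and 77.7% of lymphoid cells without thinning and in 83.6% and 84.9% at 7400 UMIs.

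Leaving out barcodes present in both libraries was chosen after seeing the data and moved no value beyond its interval. Apart from the C1q cluster at resolution 0.5, whose cell make-up is given with that result, the cause of these changes was not tested. Some classes had no value under some settings: the interferon-gene class at resolution 0.5, with 20 PCs, without depth regression, with class II genes kept and by marker UMIs, the cDC1-like clusters at resolution 0.5 and by marker UMIs, and unnamed cluster 1 by marker UMIs. With 1 library per genotype, no spread between animals is known.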

Other observations

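Within a class, cells with high class II also differed in other genes. Class II-high cells were compared with cells in the lymphoid range, without candidate doublets; both sets were chosen by their class II level, no test was made, and the genes given here were chosen after their values were seen. Among nonclassical monocyte-like cells (54 and 48 high, 11 and 21 low), *Tmem176b* stood at 655 and 646 CPM in high cells and at 17.7 and 74.5 CPM in low cells, while *S100a8* stood at 70.1 and 5.93 CPM against 743 and 1480 CPM and *S100a9* at 50.4 and 0 CPM against 672 and 894 CPM. *S100a8* and *S100a9* are also markers of neutrophils, and the part of neutrophil transcripts in this contrast was not tested. Of the monocyte markers, *Ccr2* stood at 498 and 531 CPM against 159 and 140 CPM, and *Ly6c2* at 210 and 578 CPM against 35.4 and 317 CPM. *Hp*, also a monocyte marker, stood at 169 and 187 CPM against 973 and 661 CPM. Of the nonclassical markers, *Eno3* stood at 81.1 and 83.0 CPM against 354 and 354 CPM. *Pglyrp1* stood at 92.1 and 113 CPM against 1168 and 400 CPM. The part of classical monocytes among the high cells was not tested. Among C1q macrophage-like cells (32 and 24 high, 9 and 38 low), *Folr2*, a marker of resident macrophages, stood at 33.4 and 32.9 CPM in high cells and 162 and 189.5 CPM in low cells, and *Ms4a4c* at 153 and 181 CPM against 21.7 and 31.2 CPM. Among interferon-gene monocyte-like cells (54 and 28 high, 11 and 6 low), *C1qa* stood at 852 and 830 CPM against 71.5 and 22.8 CPM.

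Among the DC, monocyte and macrophage classes, *H2-DMa* per 100 *H2-Ab1* UMIs was higher in the library labelled KO, with separate intervals, in those given next. It was 14.7 (13.7 to 15.8) and 23.5 (21.5 to 25.7) in interferon-gene monocyte-like cells, 10.5 (9.59 to 11.5) and 14.4 (12.9 to 15.9) in nonclassical monocyte-like cells, 12.7 (12.1 to 13.3) and 15.2 (14.6 to 15.9) in unnamed cluster 1, and 9.52 (8.93 to 10.1) and 11 (10.6 to 11.5) in Cd209a DC-like cells. The intervals overlapped in the cDC1-like clusters (9.48 and 9.89), pDC-like cells (19.5 and 23.6), C1q macrophage-like cells (16.5 and 19.4) and mature DC-like cells (5.49 and 7.44). The ratio was lower in the library labelled KO, with overlapping intervals, in classical monocyte-like cells (58.9 and 51.1), Lef1 Tcf7 T cells (24.3 and 22.6), the Klra7 Ccl5 cluster (25.9 and 24.4) and B cell-like cells (19.4 and 10.9). Without candidate doublets the log2 ratio between the libraries was 0.44 for *H2-DMa* and 0.37 for *H2-Ab1* in all lymphoid cells. *H2-DMa* was above *H2-Ab1* in cycling T cells (0.57 and 0.26), Foxp3 T cells (0.30 and 0.15) and NK cell-like cells (0.17 and -0.07). It was below in Prf1 Cxcr6 cells (0.23 and 0.38), Lef1 Tcf7 T cells (0.28 and 0.40) and the Klra7 Ccl5 cluster (-0.16 and 0.39).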
